A study of Mus musculus with 18 samples.

Results

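The mouse miRNA array entries numbered from miR-680 to miR-721 were followed in cells that expressed a normal-length or an expanded TATA-binding protein. Every array entry for a mouse miRNA with a number in this range was taken, whatever its suffix, which gave 44 of the 566 mouse entries of the array. An entry was tested where at least 1 of its probes was well above background, by the flag of the scanner software, on all 3 arrays of at least 1 group. 23 of the 44 entries (52.3%) met this, against 203 of the 522 other mouse entries (38.9%).

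The cells were Neuro2A, a mouse neuroblastoma line labelled as strain A. All groups were transfected by Amaxa nucleofection and expressed a TATA-binding protein (TBP) construct, with either 16 glutamines (16Q-TBP) or 59 glutamines (59Q-TBP), so no group was untransfected. For each construct, RNA was taken with Trizol from 3 biological replicates at 24 h, 3 at 36 h and 3 at 60 h, and each of these 18 samples had its own 1-colour Cy3 array. TBP helps to assemble RNA polymerases at promoters, and a lengthened glutamine tract in it causes spinocerebellar ataxia type 17. The labels do not say whether the replicates came from separate cultures, and the spread behind each p-value may therefore be technical. A single line was used, and neither the level of the constructs nor the share of transfected cells can be read from a miRNA array.

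Most miRNAs are cut from a hairpin precursor by Drosha and then Dicer, are loaded into an Argonaute protein, and find their target mRNAs through the seed, the bases near the 5′ end. The entries in this range were among the early additions to the mouse catalogue from cloned small RNAs. Several of them were later withdrawn or re-assigned to fragments of longer RNAs. miR-712, miR-714 and miR-715 have been linked to ribosomal RNA precursors and miR-720 to a tRNA, while miR-708 is a conserved hairpin miRNA with a host gene. An array probe reports the RNA that binds to it, so a whole hairpin product and a fragment of the same sequence give the same kind of signal.

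Mature sequences were available by exact name for 26 of the 44 entries and for 12 of the 23 tested ones, from RefSeq on GRCm38.p6. The first 5 sequences below belong to entries with the largest time-dependent rises in 16Q cells described further on, and the last 3 to entries without such a rise. Each runs 5′ to 3′ and the capitals mark the seed, bases 2 to 8.
miR-680: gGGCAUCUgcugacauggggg
miR-721: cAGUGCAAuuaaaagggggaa
miR-710: cCAAGUCUuggggagaguugag
miR-686: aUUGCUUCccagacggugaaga
miR-711: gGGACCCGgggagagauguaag
miR-691: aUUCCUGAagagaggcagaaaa
miR-719: aUCUCGGCuacagaaaaauguu
miR-706: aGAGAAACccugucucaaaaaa
miR-680 is annotated at 3 genes, on chromosomes 6, 12 and X. miR-721 lies on chromosome 5 within the span of Cux1, which encodes a homeobox transcription factor. miR-710 lies on chromosome 8, and miR-686 lies on chromosome 14 within the span of Psmb5, which encodes a proteasome subunit. miR-711 lies on chromosome 9 within the span of Col7a1, a collagen gene. miR-691 lies on chromosome 16 within the span of Robo2, an axon guidance receptor gene, miR-719 on chromosome 14 within the span of Nupl1, a nuclear pore gene, and miR-706 on chromosome 6 within the span of Wnk1, a kinase gene. No seed was shared between any of the 26 matched entries. The miR-721 seed AGUGCAA is also that of miR-130a-3p, miR-130b-3p and miR-301a-3p. A comparison of base composition over the tested entries was void, because only 52.2% of them had a sequence.

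The 44 entries had 170 probes, of which 71 were tested. 18 of the 23 tested entries were above background on all 18 arrays. The other 5 were above background on 10 arrays (miR-708), 12 arrays (miR-701 and miR-715) and 13 arrays (miR-685 and miR-719). The untested entries nearest to the filter were miR-682, miR-698, miR-702, miR-704 and miR-718, each above background on 2 of 3 arrays in its best group. In all, miR-698 was above background on 5 arrays, miR-702 on 4, miR-682 and miR-718 on 3, miR-704 on 2, and miR-683, miR-703 and miR-713 on 1. 13 entries were above background on no array: miR-684, miR-687, miR-688, miR-692, miR-693-3p, miR-693-5p, miR-694, miR-695, miR-699, miR-700, miR-707, miR-708* and miR-717. miR-700 and the star strand of miR-708 were therefore among the entries not seen above background here. Between 19 and 27 of the 44 entries were above background on an array (43.2% to 61.4%).

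A list of 81 broadly conserved miRNAs with well described hairpins was set beside these entries. 80 of them were on the array and 67 (83.8%) were tested. Of miRNAs that mark neurons, miR-9 was above background on 0 of 18 arrays and miR-124 on 1, while miR-132 was on 10 and miR-7a on 11. miR-122 of liver, miR-1 and miR-133a of muscle, and miR-223, miR-451 and both arms of miR-142 of blood cells were above background on 0 arrays. However, miR-206, also of muscle, and miR-155, also of blood cells, met the filter for testing. Markers of these tissues were thus not all silent.

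Values are log2 of the processed signal divided by a scaling factor, the array's 75th percentile over 290 probes above background on all 18 arrays, with a floor at -4.11. Probes bind unequally, so an entry's values can be compared between arrays but not with those of another entry. The scaling factor ran from 106 to 331 over the 18 arrays. It was 311, 331 and 216 on the 16Q arrays at 24 h and 118, 117 and 236 on those at 60 h, so the size of the change between these groups depends on the scaling, as given below. The arrays lay on 3 slides. The 24 h arrays were all on slide 1, together with the first 2 replicates of 16Q at 36 h. Slide 2 carried the other 36 h arrays and, for 60 h, the 3 arrays of 16Q with the first replicate of 59Q, and slide 3 carried the last 2 arrays of 59Q at 60 h. 4 arrays had low correlations with the rest: the first 2 replicates of 16Q at 24 h, the second of 59Q at 36 h and the first of 59Q at 60 h.

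The entries moved together from array to array. Their median deviation from each entry's own mean was -0.98, -0.87 and -0.29 on the 16Q arrays at 24 h and 0.54, 0.93 and 0.10 on those at 60 h. In 59Q it was 0.69, -0.18 and -0.27 at 24 h and -0.93, 0.53 and 0.52 at 60 h. The 16Q groups at these times do not overlap, whereas each 59Q group holds an array that lies on the other side of its replicates. At 36 h the medians lay between -0.30 and 0.48 in 16Q and between -0.13 and 0.30 in 59Q. Replicate 1 of 59Q at 60 h was the lowest of its group for 19 of the 23 entries and the highest for 59 of the 67 conserved miRNAs. Replicate 1 of 59Q at 24 h was the highest of its group for 19 of the 23 entries. The conserved miRNAs had medians of -0.34, -0.14 and 0.54 in 16Q at 24 h and -0.13, -0.17 and 0.09 at 60 h, which overlap.

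**Figure D1:**
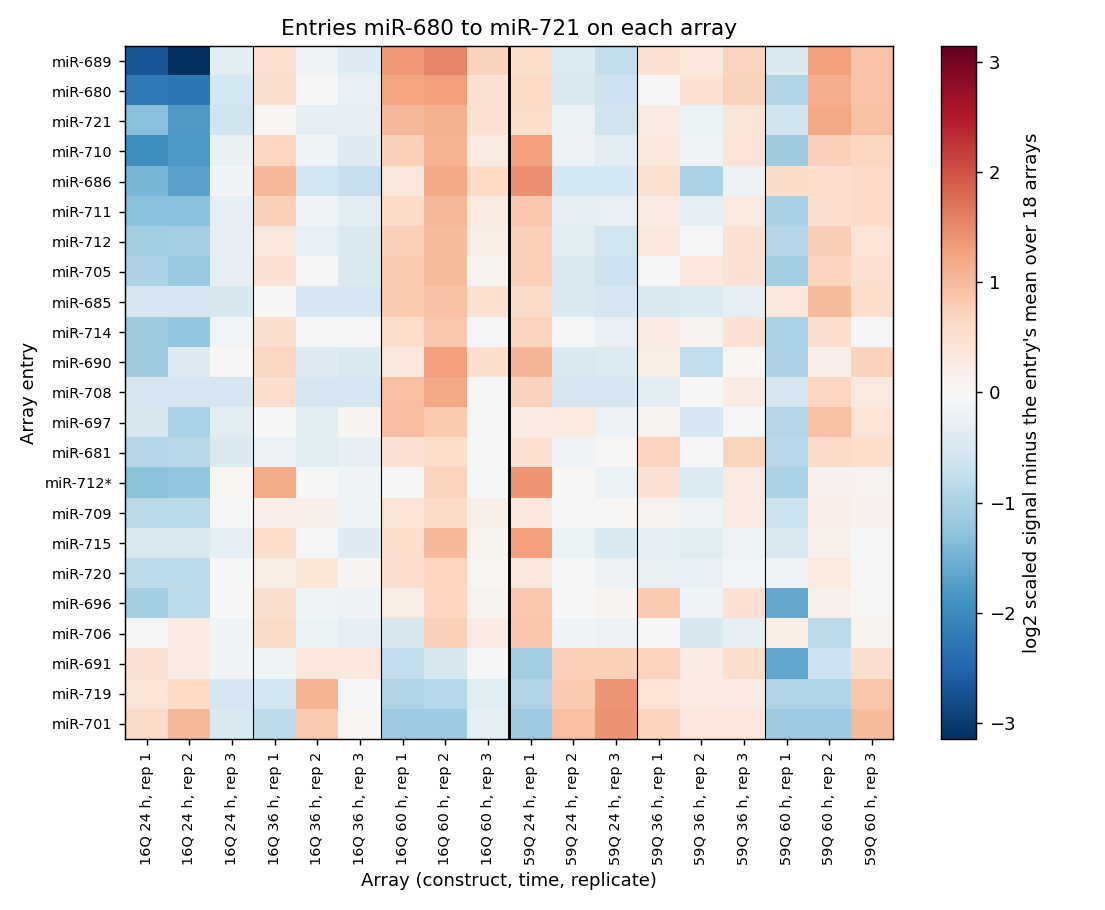
Deviation of each of the 23 tested entries (vertical axis) from its own mean over 18 arrays (horizontal axis, by construct, time and replicate), as log2 scaled signal. Most entries are low on 16Q replicates 1 and 2 at 24 h and on 59Q replicate 1 at 60 h, and high on 16Q replicates 1 and 2 at 60 h.

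**Figure D2:**
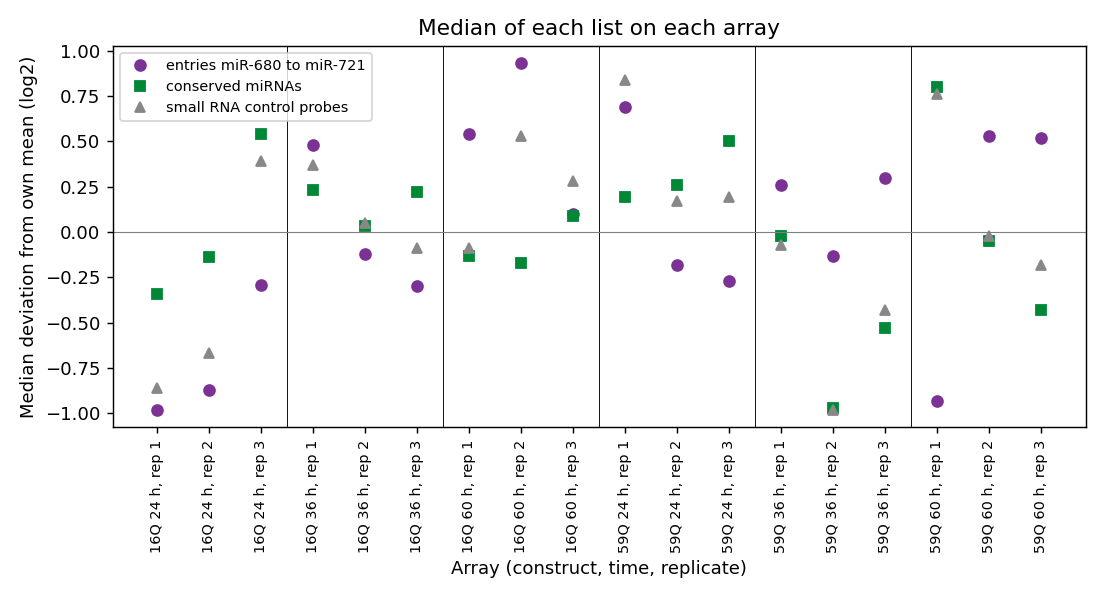
Median deviation on each array (points, log2) of the 23 entries, of 67 conserved miRNAs and of 26 control probes for other small RNAs, with lines between groups. On 59Q replicate 1 at 60 h the entries had a median of -0.93 and the conserved miRNAs one of 0.80.

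The change from 24 to 60 h in 16Q cells was the comparison in which entries of this range passed the test. 15 of the 23 tested entries rose and 0 fell, led by miR-689, miR-680 and miR-721, while 35.4% of all 226 tested entries passed and 25.2% passed with a higher value (limma, Benjamini-Hochberg adjusted p under 0.05). The median log2 change was 1.24 over the 23 entries and 0.16 over all 226. Of the 67 conserved miRNAs 7 rose and 3 fell, with a median of -0.09. In 18 of the 23 entries all 3 arrays at 60 h lay above all 3 arrays at 24 h, which held for 31.9% of all tested entries. Some entries could only pass the filter where they were high, so the same was counted in the 18 entries above background on all arrays, of which 13 rose, with a median of 1.25. The share of all entries under that stricter rule was not counted, so these 13 have no matched background.

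miR-689 had values of -3.08, -3.53 and -0.72 at 24 h, 0.10, -0.49 and -0.79 at 36 h, and 0.97, 1.16 and 0.34 at 60 h in 16Q. All 60 h arrays lay above all 24 h arrays, and replicate 3 at 24 h lay close to the 36 h arrays. The rise from 24 to 60 h was 9.63-fold (log2 3.27, SE 0.60, limma adjusted p = 0.00373).

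miR-680, whose sequence ends in a run of G, read -4.08, -4.11 and -2.41 at 24 h, -1.35, -1.86 and -2.10 at 36 h, and -0.60, -0.56 and -1.39 at 60 h in 16Q. No array at 24 h reached any later array. Replicates 1 and 2 at 24 h lay at or near the floor of -4.11, so the change rests partly on the floor. The rise to 60 h was 6.43-fold (log2 2.68, SE 0.54, limma adjusted p = 0.00532).

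miR-721, with the seed of the miR-130 and miR-301 family, read -3.50, -3.96 and -2.80 at 24 h, -2.11, -2.47 and -2.47 at 36 h, and -1.16, -1.07 and -1.73 at 60 h in 16Q. The 3 times did not overlap. The rise to 60 h was 4.28-fold (log2 2.10, SE 0.44, limma adjusted p = 0.00646). The array entries miR-130a, miR-130b and miR-301a, which share its seed, did not pass in this comparison. miR-130a had a log2 change of 0.07 (SE 0.27, limma adjusted p = 0.858), miR-130b of 0.26 (SE 0.32, limma adjusted p = 0.536) and miR-301a of -0.15 (SE 0.44, limma adjusted p = 0.797). Other entries with this seed were not looked up.

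miR-710 read -4.08, -3.95 and -2.39 at 24 h and -1.41, -1.05 and -1.87 at 60 h in 16Q, a rise of 4.08-fold (log2 2.03, SE 0.56, limma adjusted p = 0.0183). miR-686 read -3.66, -3.93 and -2.33 at 24 h and -1.85, -1.03 and -1.59 at 60 h, a rise of 3.52-fold (log2 1.81, SE 0.58, limma adjusted p = 0.0279). miR-711 read -3.73, -3.73 and -2.71 at 24 h and -1.80, -1.36 and -2.12 at 60 h, a rise of 3.10-fold (log2 1.63, SE 0.46, limma adjusted p = 0.0183). In these 3 entries, as in miR-689 and miR-680, replicate 3 at 24 h was the highest of its group and lay nearest to the later arrays. Replicate 3 was the highest at 24 h for 18 of the 23 entries and for 64 of the 67 conserved miRNAs.

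**Figure D3:**
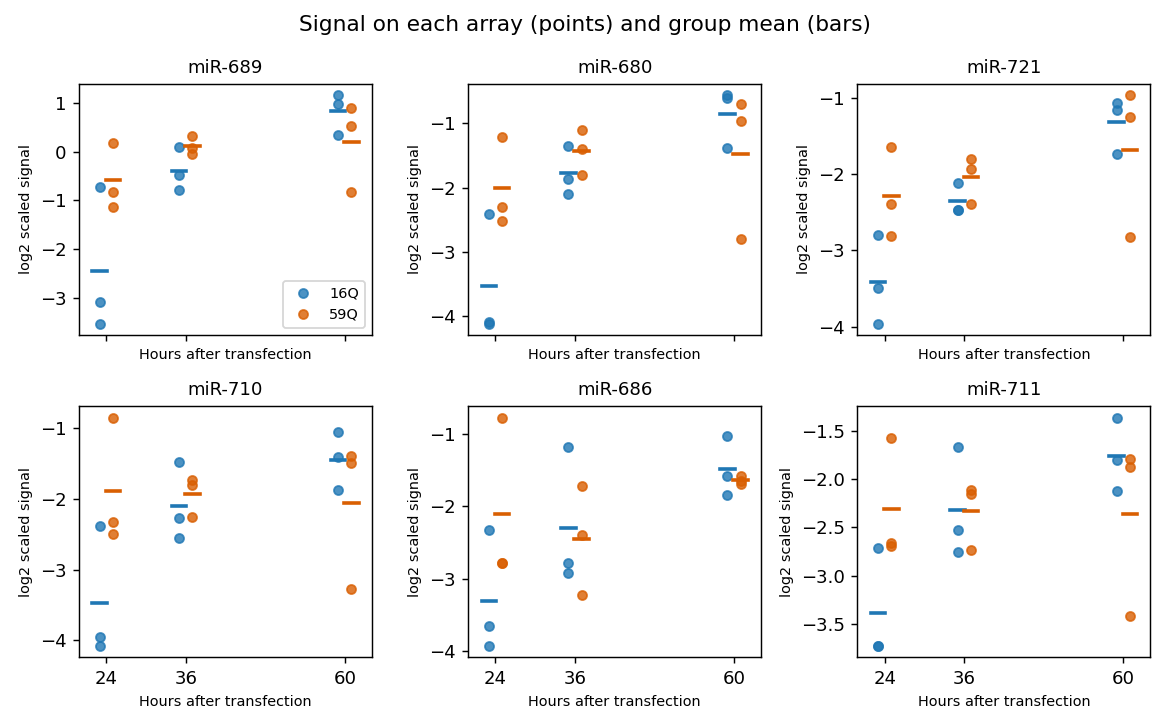
Log2 scaled signal (vertical axis, its own range in each panel) against hours after transfection for miR-689, miR-680, miR-721, miR-710, miR-686 and miR-711, with points for arrays and bars for group means of 3 arrays, the constructs set slightly apart at each time. In 16Q all 60 h points lie above all 24 h points in each panel, and in 59Q the 24 and 60 h points overlap.

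Of the entries linked to ribosomal RNA precursors, miR-712 and miR-714 rose in 16Q and miR-715 did not pass. miR-712 read -3.14, -3.09 and -2.33 at 24 h and -1.29, -1.04 and -1.80 at 60 h (2.78-fold, log2 1.48, SE 0.44, limma adjusted p = 0.0212). miR-714 read -2.34, -2.44 and -1.31 at 24 h and -0.68, -0.38 and -1.26 at 60 h (log2 1.26, SE 0.40, limma adjusted p = 0.0277). The highest 24 h array of miR-714 lay just under its lowest 60 h array. miR-715 read -4.11, -4.11 and -3.91 at 24 h, where 1 of 3 arrays was above background, and -3.08, -2.60 and -3.55 at 60 h, where 2 were (log2 0.97, SE 0.39, limma adjusted p = 0.0668). The star strand of miR-712 had a log2 change of 1.06 (SE 0.50, limma adjusted p = 0.106), and its groups overlapped.

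miR-720, linked to a tRNA, read 4.57, 4.57 and 5.37 at 24 h, 5.63, 5.76 and 5.47 at 36 h, and 5.93, 6.07 and 5.44 at 60 h in 16Q. Replicate 3 at 24 h again lay close to the later arrays, and the times 24 and 60 h did not overlap. The rise was 1.96-fold (log2 0.97, SE 0.27, limma adjusted p = 0.0183). miR-709, a miRNA studied in mouse for its nuclear action on the miR-15a and miR-16 precursor, read 2.76, 2.75 and 3.56 at 24 h and 4.01, 4.21 and 3.78 at 60 h. Its rise was 1.97-fold (log2 0.98, SE 0.29, limma adjusted p = 0.0212). Without scaling between arrays the change was 0.05 for miR-720 and 0.06 for miR-709 on the log2 scale.

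miR-708, the conserved hairpin miRNA, was above background on 0 of 3 arrays at 24 h in 16Q and on 3 of 3 at 60 h, where it read -2.62, -2.35 and -3.61. On the scaled values it was at least 2.37-fold higher at 60 h (limma adjusted p = 0.0338). This is a bound against the floor of -4.11, which lay above the lowest signal well above background on each of the 24 h arrays. The bound holds for this scaling only, since the log2 change was 0.84 without scaling between arrays. Over 30 alternatives the log2 change of miR-708 ran from 0.2 to 1.77 and missed the threshold in 11. It entered the tests through its level at 36 h in 59Q and at 60 h in 16Q. miR-690 read 0.28, 1 and 1.41 at 24 h and 1.77, 2.70 and 1.95 at 60 h, groups that did not overlap, and did not pass (log2 1.24, SE 0.51, limma adjusted p = 0.0683).

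The other 4 entries that rose were miR-705, miR-685, miR-697 and miR-681, with log2 changes between 1.09 and 1.46. miR-685 was above background on 1 of 3 arrays at 24 h and on 3 of 3 at 60 h (log2 1.26, SE 0.30, limma adjusted p = 0.00928). 4 entries had changes near 0 or below it and did not pass. miR-706 had a log2 change of 0.13 (limma adjusted p = 0.797), and its probes differed in sign, from -0.34 to 0.52. It was the only tested entry with several probes for which this was so.

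miR-691 read -0.97, -1.17 and -1.54 at 24 h and -2.20, -1.93 and -1.45 at 60 h in 16Q (log2 -0.64, limma adjusted p = 0.323). miR-719 read -2.76, -2.54 and -3.70 at 24 h and -4.11, -4.08 and -3.56 at 60 h, where 1 of 3 arrays was above background (log2 -0.92, limma adjusted p = 0.236). miR-701 read -2.37, -1.96 and -3.45 at 24 h and -4.11, -4.11 and -3.26 at 60 h, also above background on 1 of 3 arrays there (log2 -1.23, limma adjusted p = 0.154). In these 3 entries replicate 3 at 24 h was the lowest of its group, the reverse of most other entries.

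The size of this change depended on the scaling, the slide and a few arrays. Without scaling between arrays, 2 of the 23 entries passed, miR-689 (log2 2.46, limma adjusted p = 0.0264) and miR-680 (log2 1.83, limma adjusted p = 0.0264), a smaller share than the 18.1% of all entries that passed then. Without scaling the median over the 23 entries was 0.52, with 19 of them above 0, while that over all entries was -0.70 and that over the conserved miRNAs -0.86. The same 2 entries passed in the deposited unscaled log2 values, where 2.21% of all entries did, and of the 23 miR-689 alone passed after normexp background correction, where 1.33% of all entries did. The control probes for other small RNAs had a median change of 0.70 on the scaled values, with 26 of 26 above 0, and their part in the result was not tested.

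No slide held both 24 and 60 h arrays of 16Q, so the slide and this span of time cannot be compared on 1 slide. With the slide as a block 0 of 23 entries passed, as did 0% of all entries, at a median of 1.63 against 0.08 over all entries. Within slide 1, 36 minus 24 h was above 0 for 21 of the 23 entries (median 0.81), and within slide 2, 60 h minus the single 36 h array was above 0 for 20 of 23 (median 0.95). Of the 23 entries 4 passed without replicate 1 of 16Q at 24 h and 2 without replicate 2, where 5.75% and 2.65% of all entries did. Without replicate 1 at 60 h 4 passed and without replicate 2 at 60 h 3 passed, where 8.41% and 3.1% of all entries did. Without replicate 3 at 24 h 18 passed, where 43.8% of all entries did. Without all 4 arrays that stood apart 0 passed, where 1.77% of all entries did, and the median was 0.84 against -0.15 over all entries.

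In 59Q cells the change from 24 to 60 h had no common direction on the scaled values. 0 of the 23 entries passed in limma, where 1.33% of all entries did, and 1 had an unadjusted p under 0.05, where 4.87% of all entries did. The median log2 change was -0.05, against -0.01 over all entries and -0.25 over the conserved miRNAs. 9 of the 23 entries lay above 0, and in 0 of 23 were all 60 h arrays above all 24 h arrays, where 3.54% of all entries showed this. The median change was 0.28 without scaling between arrays, with 18 of 23 above 0, against 0.29 over all entries and 0 over the conserved miRNAs. In that setting 0 of 23 passed, where 0.442% of all entries did.

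miR-689 read 0.18, -0.82 and -1.13 at 24 h, 0.08, -0.06 and 0.31 at 36 h, and -0.84, 0.90 and 0.52 at 60 h in 59Q. 2 of the 3 arrays at 60 h lay above all 24 h arrays and replicate 1 lay among them (log2 0.78, SE 0.60, limma adjusted p = 0.847). miR-680 read -1.21, -2.30 and -2.51 at 24 h and -2.79, -0.70 and -0.96 at 60 h (log2 0.53, SE 0.54, limma adjusted p = 0.917). miR-721 read -1.64, -2.39 and -2.81 at 24 h and -2.82, -0.96 and -1.25 at 60 h (log2 0.61, SE 0.44, limma adjusted p = 0.839). In each of these entries replicate 1 was the lowest array at 60 h and the highest at 24 h.

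The 3 entries with the smallest p in 59Q were miR-685, miR-696 and miR-691. miR-685 read -2.98, -4.07 and -4.11 at 24 h and -3.27, -2.60 and -3.03 at 60 h (log2 0.75, SE 0.30, limma adjusted p = 0.693). miR-696 read -1.44, -2.28 and -2.21 at 24 h and -3.90, -2.14 and -2.26 at 60 h (log2 -0.79, SE 0.44, limma adjusted p = 0.839), so that its low mean at 60 h came from replicate 1. miR-691 read -2.49, -0.67 and -0.68 at 24 h and -3.05, -2.07 and -0.91 at 60 h (log2 -0.73, SE 0.50, limma adjusted p = 0.839). The groups overlapped in all 3.

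miR-708 had a log2 change of 0.26 in 59Q, miR-712 of 0.16, miR-714 of -0.30, miR-715 of -0.32, miR-709 of -0.22 and miR-690 of -0.06, with limma adjusted p from 0.917 to 0.98. miR-720 read 5.75, 5.35 and 5.21 at 24 h and 5.27, 5.71 and 5.32 at 60 h, groups whose ranges nearly coincide. Without replicate 1 at 60 h the median change over the 23 entries was 0.44 and 0 passed, where 7.96% of all entries did. Without all 4 arrays that stood apart the median was also 0.44, and 2 of the 23 passed, a smaller share than the 19% of all entries that did. They were miR-689 (log2 1.30, SE 0.40, limma adjusted p = 0.0406) and miR-721 (log2 1.18, SE 0.32, limma adjusted p = 0.0284).

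**Figure D4:**
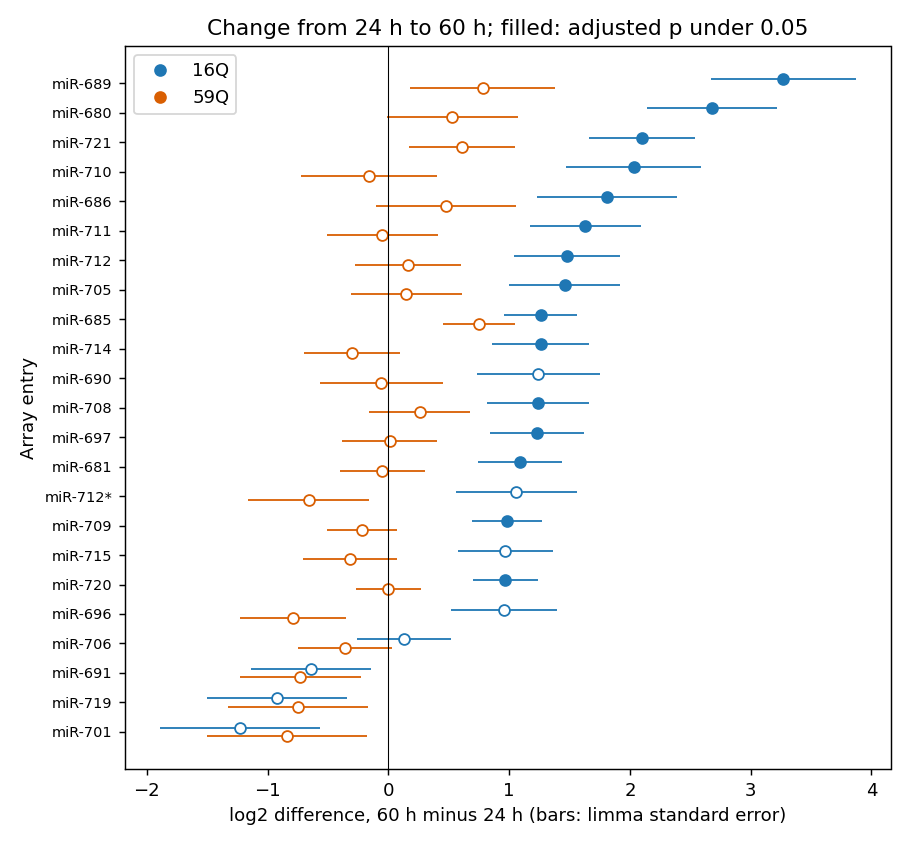
Log2 difference between 60 and 24 h (horizontal axis) for each of the 23 entries (vertical axis) in 16Q and 59Q, with limma standard errors as bars and filled points for an adjusted p under 0.05. 15 points are filled in 16Q, all above 0, and 0 in 59Q.

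Whether the change from 24 to 60 h itself differed between the constructs was tested as an interaction. 0 of the 23 entries passed in limma, as did 0% of all entries. 14 of 23 had an unadjusted p under 0.05, each with a smaller change in 59Q, where 24.3% of all entries had such a p in either direction. The median difference, 59Q minus 16Q, was -1.30 over the 23 entries, -0.21 over all entries and -0.13 over the conserved miRNAs. Over the control probes for other small RNAs it was -0.88, with 25 of 26 below 0, so a smaller change in 59Q was not particular to these entries.

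The smallest p belonged to miR-709 (log2 -1.2, SE 0.41), miR-689 (log2 -2.49, SE 0.85) and miR-696 (log2 -1.75, SE 0.62), each with a limma adjusted p of 0.174. The 95% confidence interval of miR-689 ran from -4.29 to -0.69 and that of miR-701, one of the entries that did not rise, from -1.58 to 2.37. 9 of the 23 entries passed without replicate 3 of 16Q at 24 h, where 20.8% of all entries did. With the slide as a block 13 passed, where 23.9% of all entries did, at a median of -2.26 against 0.03 over all entries. In that fit the 59Q level at 60 h rests on replicate 1, since slide 3 held only replicates 2 and 3 of that group. Leaving out all 4 arrays that stood apart kept only replicate 3 of 16Q at 24 h. The median difference was then -0.36, against -0.01 over all entries and 0.02 over the conserved miRNAs. Without scaling between arrays the median was -0.09, against 0.84 over all entries and 0.92 over the conserved miRNAs.

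At 24 h the entries tended to be higher in 59Q than in 16Q, without passing the test. 22 of the 23 differences were above 0, with a median of 0.73, against 0.25 over all entries, 0.25 over the conserved miRNAs and 0.81 over the control probes. 0 of 23 passed in limma, where 0.442% of all entries did. 11 had an unadjusted p under 0.05, all of them higher in 59Q. Of all entries 20.4% had such a p, 23 of them higher in 59Q and 23 lower. In 5 entries all 59Q arrays lay above all 16Q arrays, as in 6.19% of all entries: miR-681, miR-696, miR-697, miR-709 and miR-711.

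The smallest p at 24 h belonged to miR-689 (log2 1.85, SE 0.60), miR-710 (log2 1.58, SE 0.56) and miR-680 (log2 1.52, SE 0.54), each with a limma adjusted p of 0.192. miR-710 read -0.85, -2.33 and -2.50 in 59Q and -4.08, -3.95 and -2.39 in 16Q. The arrays of miR-710, as those of miR-689 and miR-680 given above, overlap through replicate 3 of 16Q. Without that array 9 of the 23 entries passed, where 22.1% of all entries did, and the median was 0.96 against 0.42 over all entries. miR-712 differed by 0.74 (SE 0.44) and miR-720 by 0.60 (SE 0.27) on the log2 scale. miR-708 was above background on 1 of 3 arrays in 59Q and on 0 of 3 in 16Q. Its other 59Q arrays also lay at the floor. The 1.33-fold difference of the scaled values is therefore not a bound (limma adjusted p = 0.598). Without scaling between arrays the median difference at 24 h was 0.23, against -0.35 over all entries.

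On the scaled values the constructs were closer at 36 h in these entries. The median difference was 0.15, against -0.19 over all entries and -0.62 over the conserved miRNAs, of which 26 had an unadjusted p under 0.05 with lower values in 59Q and 0 passed. 0 of the 23 entries passed in limma, where 0.442% of all entries did, and 1 had an unadjusted p under 0.05, where 15.5% of all entries did. That entry was miR-681, which read -1.87, -2.56 and -1.86 in 59Q and -2.76, -2.95 and -2.87 in 16Q (log2 0.76, SE 0.35, limma adjusted p = 0.298). Its arrays did not overlap. The closeness at 36 h depended on the scaling. Over the 23 entries the median difference was 0.81 without scaling between arrays, with 23 of 23 above 0. It was then 0.47 over all entries and 0.05 over the conserved miRNAs, and 0 of the 23 passed, where 0.442% of all entries did.

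miR-720 read 5.16, 5.14 and 5.31 in 59Q and 5.63, 5.76 and 5.47 in 16Q at 36 h, also without overlap but with 59Q lower (log2 -0.42, SE 0.27, limma adjusted p = 0.472). miR-712 read -1.68, -2.07 and -1.59 in 59Q and -1.68, -2.30 and -2.50 in 16Q, with overlap (log2 0.38, SE 0.44, limma adjusted p = 0.701). The difference in miR-720 was 0.36 without scaling between arrays, so its direction depended on the scaling. Within slide 2, which held all 59Q arrays but 1 of the 16Q arrays of this time, 21 of 23 differences were above 0, with a median of 0.42.

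At 60 h 21 of the 23 differences were below 0, with a median of -0.51, against 0.06 over all entries and 0.13 over the conserved miRNAs. 0 of 23 passed in limma, where 0.442% of all entries did, and 0 had an unadjusted p under 0.05, where 0.442% of all entries did. The smallest p belonged to miR-696, which read -2.07, -1.61 and -2.19 in 16Q against -3.90, -2.14 and -2.26 in 59Q (log2 -0.81, SE 0.44, limma adjusted p = 0.947). Next were miR-709 with 2.93, 3.80 and 3.74 in 59Q (log2 -0.51, SE 0.29) and miR-715 with -4.11, -3.46 and -3.66 in 59Q (log2 -0.67, SE 0.39), both with a limma adjusted p of 0.947. In all 3 entries replicate 1 of 59Q was the lowest.

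That replicate was the only 59Q array at 60 h on the slide of the 16Q arrays. Set against it within slide 2, 22 of 23 entries were lower in 59Q, with a median of -1.25. With the slide as a block 9 of the 23 entries passed, all lower in 59Q, where 21.7% of all entries passed. Among the 9 were miR-680, miR-696 and miR-721. Without that replicate the median difference at 60 h was -0.07, against -0.06 over all entries. Without scaling between arrays it was 0.05, against 0.52 over all entries and 0.62 over the conserved miRNAs. Averaged over the 3 times, 0 of 23 entries passed in limma, where 0.442% of all entries did. 1 entry, miR-681 (log2 0.46), had an unadjusted p under 0.05, where 0.885% of all entries did, and the median was 0.16.

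**Figure D5:**
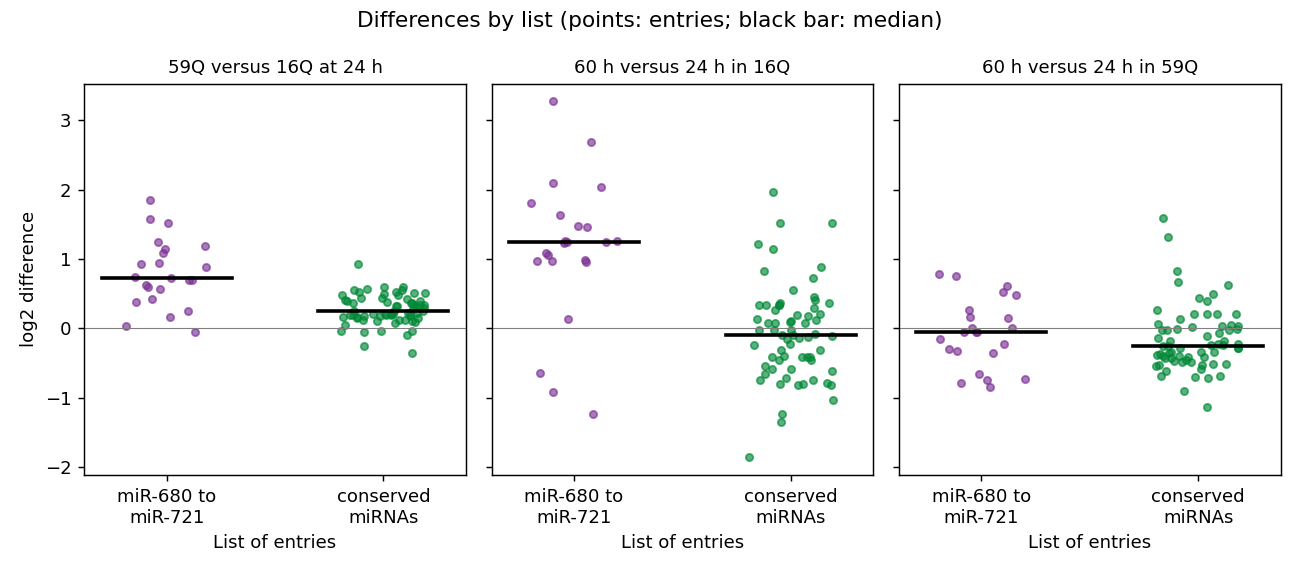
Log2 differences (vertical axis) of the 23 entries and 67 conserved miRNAs, with points for entries, spread sideways for sight only, and bars for medians, in panels for 59Q versus 16Q at 24 h and for 60 versus 24 h in each construct. The medians of the 23 entries and of the conserved miRNAs are 1.24 and -0.09 for 60 versus 24 h in 16Q, and -0.05 and -0.25 in 59Q.

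From 24 to 36 h in 16Q the entries took values between those at 24 and 60 h in many cases, and none passed. The median change was 0.69, against 0.15 over all entries, and 20 of 23 changes were above 0. Over the control probes for other small RNAs the median was 0.53, with 26 of 26 above 0. 0 of 23 passed in limma, as did 0% of all entries, and 9 had an unadjusted p under 0.05, all higher, where 11.5% of all entries did. The smallest p belonged to miR-689 (log2 2.05, SE 0.60, limma adjusted p = 0.167), miR-680 (log2 1.76, SE 0.54, limma adjusted p = 0.189) and miR-720 (log2 0.78, SE 0.27, limma adjusted p = 0.246). The times did not overlap for miR-680 and miR-720, and for miR-689 they overlapped through replicate 3 at 24 h. Without that replicate 3 of the 23 passed, where 3.54% of all entries did. Without scaling between arrays the median was -0.01, against -0.60 over all entries and -0.67 over the conserved miRNAs.

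From 24 to 36 h in 59Q the entries had a median change of -0.02, against -0.26 over all entries and -0.74 over the conserved miRNAs. 0 of 23 passed in limma, as did 0% of all entries, and 0 had an unadjusted p under 0.05, where 28.3% of all entries did. The smallest p belonged to miR-706, which read -0.67, -1.65 and -1.72 at 24 h and -1.59, -2.04 and -1.84 at 36 h (log2 -0.48, SE 0.39, limma adjusted p = 0.427). miR-715 read -2.33, -3.83 and -4.11 at 24 h and -3.90, -4.00 and -3.79 at 36 h (log2 -0.47, SE 0.39, limma adjusted p = 0.443). For both entries the 24 h mean was raised by replicate 1. miR-689 had a log2 change of 0.70 (SE 0.60, limma adjusted p = 0.461). The median over the 23 entries was 0.61 without scaling between arrays, with 23 of 23 above 0. It was then 0.31 over all entries and -0.29 over the conserved miRNAs, and 0 of the 23 passed, as did 0% of all entries.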

How the data were processed

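The authors' scanner files give the intensity of each spot in arbitrary units. The software was Agilent Feature Extraction (version 9.5.1.1) according to the headers. Its processed intensity was background-subtracted, per the file headers, and no scaling between arrays is recorded. The deposited series table holds log2 values that match log2 of each spot's net signal, unscaled and uncentred (medians 4.98 to 5.90 per array), and served as an alternative. The array design names build mm6, per the file headers. The mature sequences come from RefSeq on another build, so no coordinates are given.

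The processed signal was averaged over unflagged spots of each probe. A probe counted as above background where at least 50% of its spots carried the flag. Each array was scaled by its 75th percentile over 290 probes, floored at 0.0581 and taken to log2. An entry is the mean of its probes that met the filter given in the opening (557 probes and 226 entries in all). Tests used limma 3.58.1 in R 4.3.3, with 1 fit of 6 group means, 12 residual degrees of freedom, and p-values adjusted by Benjamini and Hochberg over 226 entries, at 0.05. The number of arrays limits the precision. The steps were tested on simulated data with noise drawn independently for each entry and array. That test does not cover entries that move together from array to array, as they did here.

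The members and lists were chosen with earlier results of these data known. Values in every array are given, per comparison, for up to 6 entries that passed with the largest change, or for the 3 smallest p where none passed. miR-689, miR-690, miR-700, miR-708, miR-709, miR-712, miR-714, miR-715, miR-720 and miR-721 were named whatever their values. Markers of other cell types and the entries miR-130a, miR-130b and miR-301a were added after values were seen. Alternatives were other background corrections, scalings and filters, the slide or replicate number as a block, and arrays left out. Numbers did not pair the samples (correlations of same-numbered deviations from -0.812 to 0.844), so no block was used.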

Additional observations from a re-analysis of the deposited data

How the results depend on the processing

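The change from 24 to 60 h in 16Q depended most on the processing. Of the 23 entries, 13 passed with quantile normalization and 14 with the brightest probe. With the percentile over all probes 16 passed, and with only the arrays compared 19. The 15 entries of the main fit were among those passing in both of these settings. Of the 19, 18 rose and miR-701 fell (log2 -1.23, SE 0.41, limma adjusted p = 0.0337). 5 passed without the filter on dim probes (of 44), 2 without scaling and 2 in the deposited log2 values. 1 passed with normexp, 0 with the slide as a block and 2 with arrays centred on the conserved miRNAs. The last was an alternative chosen after seeing the data. The shares of all entries passing were, in the same order, 36.7%, 32.3%, 36.7%, 43.4%, 4.77%, 18.1%, 2.21%, 1.33%, 0% and 10.6%. Leaving out the 4 arrays that stood apart kept only replicate 3 of 16Q at 24 h, and the median change was then 0.84. The replicate number as a block left the same 15 passing, where 30.1% of all entries did, against 35.4% in the main fit. It changed no call of the 23 entries in these comparisons. The cause of these differences was not tested.

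Leaving out 1 array at a time gave 2 to 18 passing entries for this change, 0 to 9 for 59Q versus 16Q at 24 h, 0 to 3 for 36 versus 24 h in 16Q, 0 to 9 for the difference of the changes and 0 to 0 elsewhere. With the slide as a block, 9 entries passed for 59Q versus 16Q at 60 h and 13 for the difference of the changes. Both of these counts rest on replicate 1 for the 59Q level at 60 h. Without the 4 arrays, 2 passed for 60 versus 24 h in 59Q. miR-689 kept a log2 change of 1.54 to 4.13 in 16Q over 30 alternatives and missed the threshold in 2, and miR-680 ranged from 0.87 to 3.24 and missed it in 3.

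Without scaling between arrays, many of the 23 entries changed direction. For 59Q versus 16Q at 60 h, 2 lay above 0 in the main fit and 12 without scaling. For 36 versus 24 h in 59Q these counts were 11 and 23, and for 60 versus 24 h in 59Q 9 and 18. Single values were followed per comparison only for entries that passed, or for those with the smallest p where none passed. Those that changed direction were all of entries that did not pass, except miR-709 for 60 versus 24 h in 16Q. It was -0.04 with quantile normalization. With normexp, miR-712 at 36 h was -0.11, miR-681 and miR-721 averaged over times were -0.04 and -0.07, and miR-685 for 60 versus 24 h in 59Q was -0.05. The 59Q versus 16Q difference of miR-720 at 36 h was 0 with quantile normalization, 0.36 without scaling and in the deposited table, and 0.56 centred on conserved miRNAs. Without scaling and in the deposited table, miR-709 at 60 h was 0.05 and 0.04, its difference of the changes 0.07 and 0.05, and miR-720 for 36 versus 24 h in 16Q -0.06 and -0.05. For 36 versus 24 h in 59Q, miR-706 and miR-715 were 0.17 and 0.18 without scaling, 0.08 and 0.11 in the deposited table, 0.02 and 0.19 with the slide block and 0.58 and 0.58 centred on conserved miRNAs, and miR-715 ran from -0.81 to 0.07 over the arrays left out. miR-712 at 36 h was -0.09 with the brightest probe. Signal over background limits the 5 tested entries that were not above it on all 18 arrays. The floor of -4.11 also touches entries above background on all arrays. In 16Q at 24 h miR-680 read -4.08 and -4.11 and miR-710 read -4.08 on replicate arrays. Without scaling between arrays their log2 changes to 60 h were 1.83 and 1.11.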
